A study of Mus musculus with 8 samples.

Results

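The mouse mitochondrial genome carries 37 genes, and all 37 were found among the 37310 gene rows of the count table as the rows whose Ensembl identifier maps to a symbol beginning with mt-. They comprise 13 messenger RNAs (mRNAs), 2 ribosomal RNAs (rRNAs) and 22 transfer RNAs (tRNAs). RNA came from hippocampi of B6.129 F1-hybrid mice aged 3 months and labelled male, 4 of genotype Nr2f1 het (heterozygotes) and 4 wild type (WT), the libraries of a genotype being biological replicates per the labels. The labels name no transgene and no treatment, and they do not describe the Nr2f1 allele. The cDNA kit combined priming at poly(A) tails with priming at random positions and does not mark strand, so a mitochondrial RNA and its antisense partner were counted together. Nr2f1 encodes a transcription factor of the nuclear receptor family with a role in cortical development.

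Mitochondrial DNA is a small circle whose strands are each transcribed as long RNAs. These precursors are cut largely at the tRNAs that lie between the mRNAs and rRNAs, a scheme known as tRNA punctuation. The mRNAs encode core subunits of the respiratory chain and ATP synthase, the rRNAs build the mitochondrial ribosome, and the tRNAs serve that ribosome alone. Hippocampal neurons depend on this machinery for the ATP that restores ion gradients after firing.

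Libraries held 58717305 to 90043971 gene counts. Nr2f1 was at 52.2 ± 2.07 CPM, read counts scaled by TMM to a common library size (SD, n = 4), in WT and 31.4 ± 2.16 CPM in heterozygotes (SD, n = 4), with a log2 fold change of -0.73 ± 0.0511 (SE; edgeR adjusted p = 7.32e-05). Xist was present at 463.2 to 601.4 CPM in all 8 libraries, which goes against the label male for each of them. Odd-numbered and even-numbered libraries differed in the spike-in mix in both genotypes, with an ERCC-00130 to ERCC-00002 ratio of 1.2 to 1.28 against 0.165 to 0.186.

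The mitochondrial genes made up a small part of every library. Across WT libraries 1 to 4 their share of gene counts came to 4.27%, 3.84%, 4.01% and 4.23%. Across heterozygote libraries 1 to 4 it came to 3.86%, 3.87%, 3.90% and 3.96%. WT libraries 1, 3 and 4 lay above every heterozygote library, and WT library 2 lay below all of them. The mean was 4.09% ± 0.198 in WT and 3.90% ± 0.0434 in heterozygotes (SD, n = 4 each), a difference of -0.189 percentage points that was smaller than the spread of the WT libraries. Of all mitochondrial counts, 85.7% fell on mRNAs, 14.3% on rRNAs and 0.0808% on tRNAs. In bulk RNA, fewer cells or mitochondria and less RNA per mitochondrion cannot be told apart.

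The mRNAs fell into very different ranges of counts. Of the 13, a set of 7 (mt-Co1, mt-Cytb, mt-Nd1, mt-Nd2, mt-Nd4, mt-Nd5 and mt-Nd6) carried 85.6% of the mitochondrial counts, and the other 6 (mt-Co2, mt-Co3, mt-Atp6, mt-Atp8, mt-Nd3 and mt-Nd4l) carried 0.101%. These sets were chosen after the values were seen. The 6 low genes follow one another on the genome, from the gene for subunit II of cytochrome c oxidase to a small subunit of complex I, with only tRNA genes between them. The mRNA gene before that block is mt-Co1 and the one after it is mt-Nd4.

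The same block has a nuclear copy. Fragments of mitochondrial DNA have been inserted in the nuclear genome during evolution, and such nuclear copies can be nearly identical to their source. In the GENCODE M21 transcripts, made on GRCm38, a run of 7 pseudogenes on chromosome 1 (Gm29216, Gm28661, Gm10925, Gm28437, Gm28438, Gm10222 and Gm28439) matched these neighbours. Gm28661 matched 681 of the 684 bases of mt-Co2 without a mismatch, Gm10925 matched 678 of 681 bases of mt-Atp6, and Gm28437 matched 783 of 784 bases of mt-Co3. Gm10222 matched 294 of 297 bases of mt-Nd4l, and Gm28438 matched 345 of 348 bases of mt-Nd3 with 1 mismatch. At the edges of the block the match was partial, covering the last 483 bases of mt-Co1 (Gm29216, 1 mismatch) and the first 876 of the 1378 bases of mt-Nd4 (Gm28439, none). Copies elsewhere were less alike. Gm13340 on chromosome 2 aligned with all 1545 bases of mt-Co1 at 97.6% identity, and Gm11410 on chromosome 4 with mt-Cytb at 92.9%.

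The first 120 bases of an abundantly counted gene and of a scarcely counted one are each shown beside a copy. Sequences are the GENCODE M21 transcripts, 5′ to 3′, and capitals mark bases that differ within a pair. The first pair differed at 3 of 120 bases and the second at 0.
mt-Co1: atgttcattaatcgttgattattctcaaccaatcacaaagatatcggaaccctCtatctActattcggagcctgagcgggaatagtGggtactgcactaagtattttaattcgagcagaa
Gm13340: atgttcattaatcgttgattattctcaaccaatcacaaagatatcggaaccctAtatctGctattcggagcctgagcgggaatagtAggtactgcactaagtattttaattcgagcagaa
mt-Co2: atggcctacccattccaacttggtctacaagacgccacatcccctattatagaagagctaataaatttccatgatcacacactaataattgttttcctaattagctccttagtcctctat
Gm28661: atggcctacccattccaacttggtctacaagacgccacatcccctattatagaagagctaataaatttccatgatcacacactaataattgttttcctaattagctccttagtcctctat

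Exact identity over a short stretch was then measured for each gene as the share of its windows of 50 bases that also occur in a nuclear transcript of that annotation, on either strand. The share was 100% for mt-Co2, 99.9% for mt-Co3, 99.5% for mt-Atp6, 98.8% for mt-Nd4l and 98.0% for mt-Nd3. It was 62.2% for mt-Nd4 and 51.1% for mt-Co1, and at most 8.19% for the other mRNAs and rRNAs. With windows of 100 bases it was 30.8% for mt-Co1 and 60.8% for mt-Nd4. mt-Atp8 is the exception among the low genes, at 0%. Only the 43 bases it shares with mt-Atp6 matched a pseudogene, Gm10925. The tRNA genes mt-Tk, mt-Tg and mt-Tr within the block were at 0% too. Nuclear bases outside annotated transcripts were not searched, so 0% does not show that a gene lacks a nuclear copy. The comparison used GRCm38 transcripts while the counts were made on NCBIM37, and the handling of reads with several placements was not given in the sources used here. Any part of the nuclear copies in the low counts was not tested.

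**Figure D1:**
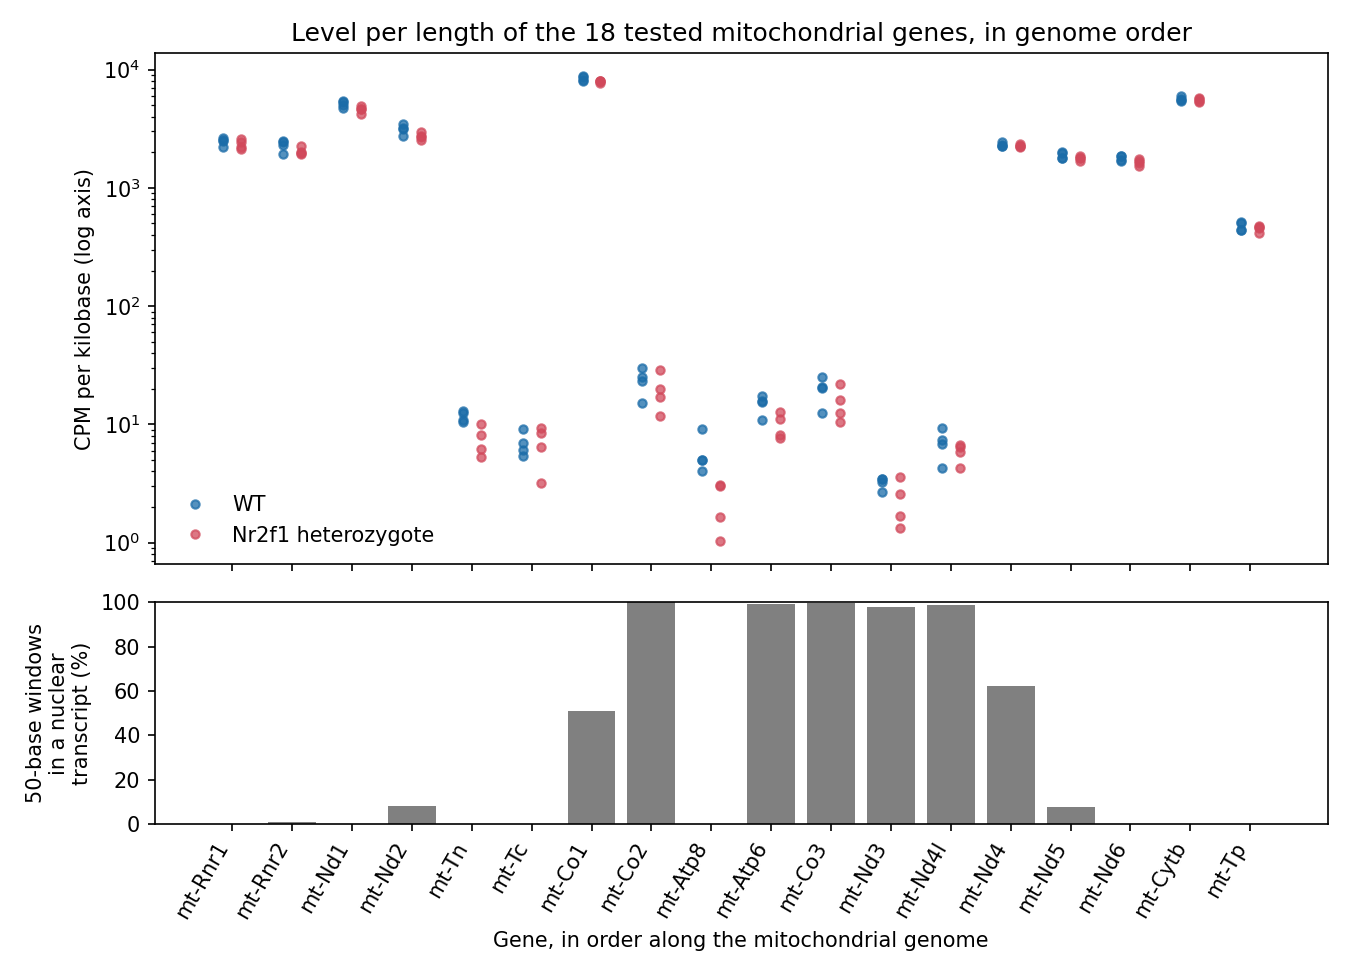
Upper panel: CPM per kilobase on a log axis for the 18 tested mitochondrial genes in genome order, with 1 point per library (WT and Nr2f1 heterozygote). Lower panel: percent of 50-base windows that also occur in a nuclear transcript; mt-Co2 to mt-Nd4l form a block of low genes, and all of them but mt-Atp8 stand near 100%.

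Per kilobase of gene, mt-Co1, a catalytic subunit of cytochrome c oxidase, was highest at 8170 CPM per kilobase on average over the 8 libraries (7735 to 8779). mt-Cytb, the cytochrome b of complex III, followed at 5607 and overlapped mt-Nd1, a complex I subunit gene, at 4870. mt-Nd2 stood at 2939, below every library of mt-Nd1. The range of each of the next 5 genes overlapped that of its neighbour: mt-Rnr1 at 2403, mt-Nd4 at 2292, mt-Rnr2 at 2166, mt-Nd5 at 1836 and mt-Nd6 at 1713. mt-Tp followed well below them at 464.6, and no range overlapped its own. A wider gap then opened. mt-Co2 was at 21.4, mt-Co3 at 17.5, mt-Atp6 at 12.4, mt-Tn at 9.54, mt-Tc at 6.87, mt-Nd4l at 6.39, mt-Atp8 at 3.99 and mt-Nd3 at 2.76 CPM per kilobase. Of the pseudogene copies with enough counts to be tested, Gm13340 was at 18.9, Gm13341 at 17.8, Gm10222 at 10.2, Gm11512 at 3.75 and Gm13339 at 3.13 CPM per kilobase, between mt-Co2 and mt-Nd3. Gm11407 at 1.75, Gm11410 at 0.831 and Gm11408 at 0.488 lay below mt-Nd3. No row of the count table matched the Ensembl identifiers of the other copies on chromosome 1, so those copies have no counts here. Full gene lengths were used throughout. Windows of 50 bases shared with a nuclear transcript cover 74.9% of the bases of mt-Co1 and 63.6% of those of mt-Nd4. Any effect of this on their place in the order was not tested.

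The low genes also differed from the abundant ones in how they moved from library to library, but they did not all move alike. mt-Co2 was at 15.8, 20.6, 10.3 and 17.1 CPM in WT libraries 1 to 4 and at 19.9, 8.0, 11.6 and 13.6 CPM in heterozygote libraries 1 to 4. Gm13341, a chromosome 2 copy that aligned with mt-Co2 at 95.9% identity, was at 13.5, 17.1, 10.5 and 13.9 CPM in WT and 13.3, 7.29, 9.52 and 10.4 CPM in heterozygotes. WT library 2 was highest and heterozygote library 2 lowest in both, and also in mt-Co3 and mt-Atp6. The other low genes departed from this. mt-Nd4l was lowest in WT library 3, and mt-Nd3 was highest in heterozygote library 1. mt-Atp8 was highest in WT library 4 and lowest in heterozygote library 3. Among heterozygotes, library 1 was highest and library 2 lowest in mt-Co2, mt-Co3, mt-Atp6, mt-Nd3 and mt-Nd4l, while library 4 was highest in all 7 abundant mRNAs. The coefficient of variation within a genotype was 1.71% to 9.03% for the 7 abundant mRNAs and 11% to 46.3% for the 6 low ones. Counting error alone would give at most 0.388% for the abundant mRNAs and 2.74% to 17.3% for the low ones.

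**Figure D2:**
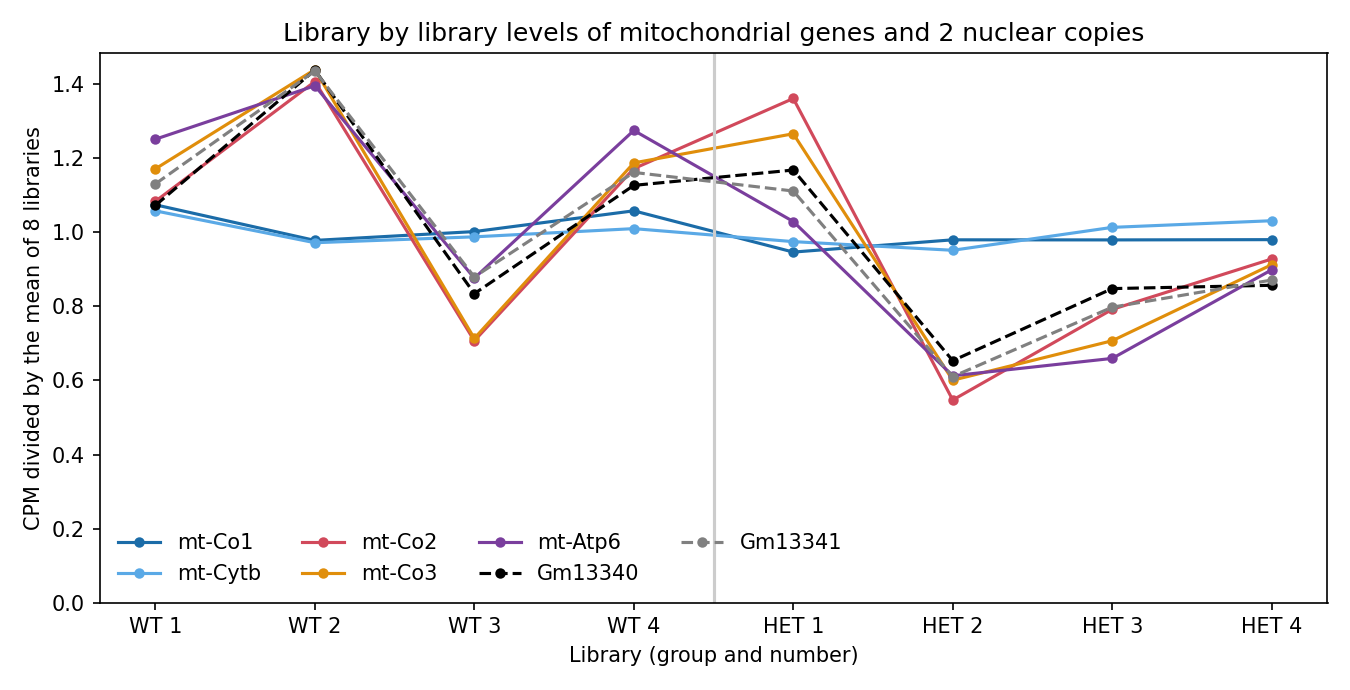
CPM of each gene divided by its mean over the 8 libraries, by library (WT 1 to 4, then heterozygote, written HET, 1 to 4). mt-Co1 and mt-Cytb stay close to 1, whereas mt-Co2, mt-Co3 and mt-Atp6 rise and dip in the same libraries as the nuclear copies Gm13340 and Gm13341 (dashed), highest in WT 2 and lowest in HET 2. Of the copies not plotted, Gm11407 and Gm11410 had the same highest and lowest library. Gm10222, Gm13339 and Gm11408 were highest in WT 4, and Gm11512 was lowest in HET 4. The low genes mt-Atp8, mt-Nd3 and mt-Nd4l, also not plotted, departed from the pattern.

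Only 3 of the 22 tRNA genes held enough counts to be tested, and they stand beside bases that no gene covers. mt-Tp, the tRNA for proline, is the last gene before the control region, where replication and transcription of the circle begin. mt-Tn (asparagine) and mt-Tc (cysteine) flank a gap of 32 bases, the site where replication of the light strand starts. All the remaining tRNA genes have at most 5 uncovered bases on either side, apart from mt-Tf. That gene opens the reference and so borders the control region of the circle on its other side, yet it had only 7 counts in all and was not tested. The tested tRNAs are all encoded on the strand opposite to most genes. Their DNA letters in GENCODE M21, with capitals on the anticodon, show how short these genes are.
mt-Tp: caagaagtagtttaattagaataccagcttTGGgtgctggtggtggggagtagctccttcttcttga
mt-Tn: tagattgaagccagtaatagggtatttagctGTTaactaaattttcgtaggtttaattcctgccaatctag
mt-Tc: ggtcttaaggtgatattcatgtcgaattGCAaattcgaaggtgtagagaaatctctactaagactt

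mt-Tp was at 33.5, 29.2, 29.8 and 34.7 CPM in WT libraries 1 to 4 and 31.8, 31.5, 30.6 and 28.0 CPM in heterozygote libraries 1 to 4. The genotypes overlapped (log2 fold change -0.062 ± 0.0618 SE, edgeR adjusted p = 0.665). mt-Tc, with 19 to 45 counts a library, did not pass either (log2 fold change -0.055 ± 0.313 SE, edgeR adjusted p = 0.956). The 19 untested tRNA genes had at most 3 counts in any library and 7 in all, and 10 of them had 0 in every library. A count of 0 allows up to 3 counts, or 0.0333 to 0.0511 CPM by library, for counting error only. Counts of so short a gene do not measure the level of the mature tRNA, since longer fragments also cover the genes beside it.

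No mitochondrial gene passed the genotype comparison, and all 18 tested genes had an estimate below 0. Of the 18, 0 passed an edgeR adjusted p of 0.05, where 2.99% of all 17913 tested genes did (0.368% lower and 2.62% higher in heterozygotes). An unadjusted edgeR p under 0.05 was reached by 6, all lower in heterozygotes, against 7.11% of all genes on that side. The DESeq2 Wald test called 3 (mt-Nd2, mt-Atp6 and mt-Atp8, all lower) where it called 6.63% of all genes in either direction and 1.58% lower. By limma-voom 0 were called. In edgeR with the replicate number as a block, within odd-numbered libraries, and without WT library 2, the calls were 1 (mt-Atp8), 1 (mt-Nd2) and 2 (both) of the 18. The shares of all genes were 2.27%, 3.09% and 2.62% in either direction, and 0.134%, 0.194% and 0.386% lower. The median log2 fold change was -0.16 over the 18 and -0.0056 over all genes, of which 52.1% lay below 0. With spike-in scaling 11 of the 18 lay below 0, against 19.8% of all genes, and mt-Rnr1, mt-Tc, mt-Co1, mt-Nd4, mt-Nd5, mt-Cytb and mt-Tp turned to values between 0.0073 and 0.078. That scaling used summed spike-in counts without correction for the mix. These made up 0.0431% to 0.0491% of counts in odd-numbered libraries and 0.0713% to 0.0787% in even-numbered ones. Spike-in scaling moved the median of all genes to 0.091. The median of the 18 then lay 0.16 log2 units below the median of all genes, as it did by 0.15 with TMM scaling. Within odd-numbered libraries the median of the 18 was -0.14, and within even-numbered ones -0.12, with 15 of 18 below 0 in each. Of all genes, 48.8% lay below 0 in the odd-numbered libraries and 51.6% in the even-numbered ones. The genes not below 0 differed, being mt-Co2, mt-Co3 and mt-Nd4l in odd-numbered libraries and mt-Tc, mt-Nd4 and mt-Cytb in even-numbered ones. The 18 share libraries and precursor transcripts, so they are not independent of one another.

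**Figure D3:**
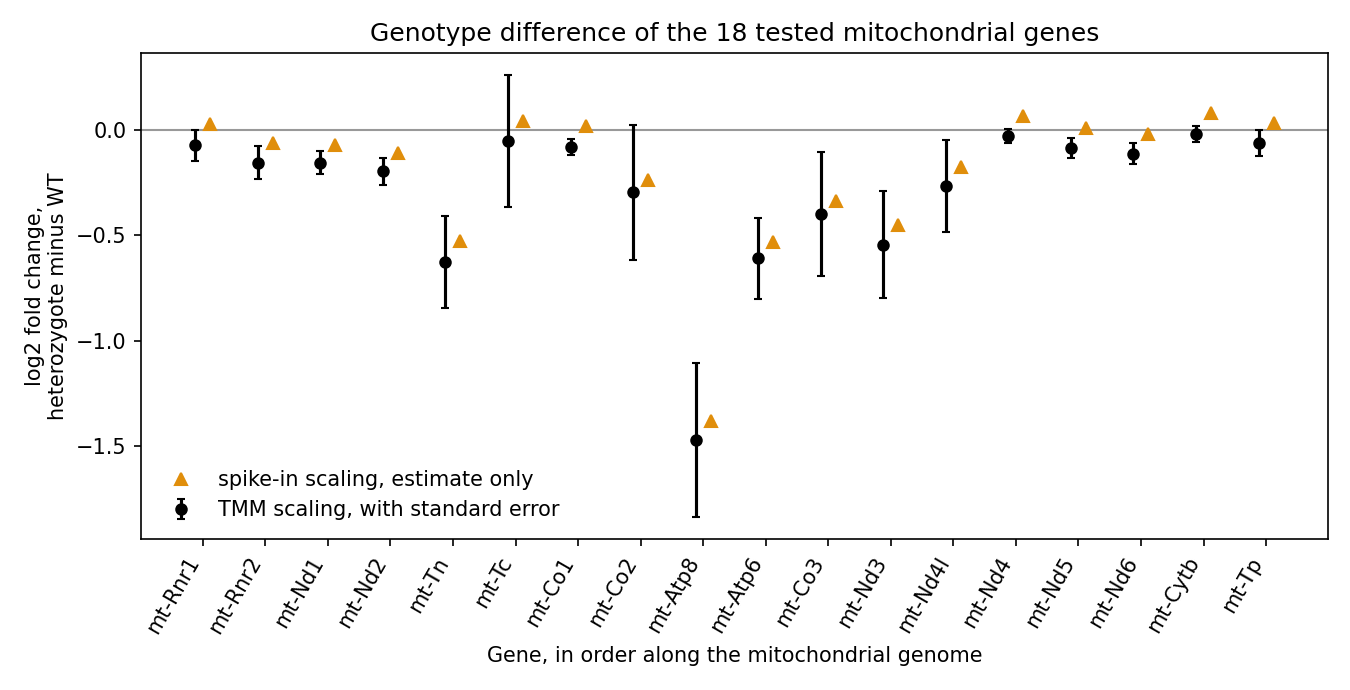
log2 fold change of heterozygotes minus WT for the 18 tested mitochondrial genes in genome order. Black points with standard errors use TMM scaling and all lie below 0; orange triangles use spike-in scaling, where 7 genes lie above 0. mt-Atp8 is the farthest from 0 at -1.47.

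Among complex I genes, mt-Nd1 and mt-Nd2 had the lowest p. mt-Nd2 was at 3352, 2864, 3249 and 3568 CPM in WT libraries 1 to 4 and 2800, 2870, 2645 and 3058 CPM in heterozygote libraries 1 to 4. WT library 2 fell inside the heterozygote range and the other WT libraries lay above it. The log2 fold change was -0.20 ± 0.0645 (SE; edgeR adjusted p = 0.136). Its value was -0.27 within odd-numbered libraries (edgeR adjusted p = 0.0389) and -0.12 within even-numbered ones (edgeR adjusted p = 0.882), and without WT library 2 it was -0.25 (edgeR adjusted p = 0.0367). mt-Nd1 was at 5180, 4561, 4835 and 5081 CPM in WT and 4457, 4450, 3990 and 4733 CPM in heterozygotes, again with WT library 2 inside the heterozygote range. Its log2 fold change was -0.16 ± 0.0542 (SE; edgeR adjusted p = 0.148). The log2 fold changes of mt-Nd4 and mt-Nd5 were -0.030 ± 0.0349 and -0.087 ± 0.0465 (SE; edgeR adjusted p = 0.716 and 0.372). Those of the low genes mt-Nd3 and mt-Nd4l were -0.54 ± 0.251 and -0.27 ± 0.218 (SE), on 37 to 108 and 101 to 239 counts a library (edgeR adjusted p = 0.293 and 0.586). mt-Nd4l was at -0.086 without WT library 2, -0.14 without heterozygote library 2 and -0.44 without WT library 3, and mt-Nd3 at -0.36 without heterozygote library 2. Rows of nuclear copies of complex I genes had estimates on the same side. Gm13339, like part of mt-Nd2, was at -0.69 ± 0.181 and Gm11407, like part of mt-Nd5, at -0.49 ± 0.154 (SE, edgeR adjusted p = 0.0605 and 0.114). Gm11408, like mt-Nd6, was at -0.57 ± 0.304 and Gm10222, like mt-Nd4l, at -0.22 ± 0.148 (SE, edgeR adjusted p = 0.373 and 0.496). The other tested pseudogene copies, Gm13340, Gm13341, Gm11512 and Gm11410, also lay below 0, from -0.46 to -0.18, and did not pass. Of all genes, 52.1% lay below 0.

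mt-Nd6 is the single mRNA encoded on the opposite strand, and its reads cannot be separated from antisense RNA of the other strand. It was at 969.7, 886.4, 871.7 and 967.3 CPM in WT libraries 1 to 4 and 793.5, 869.0, 847.9 and 905.2 CPM in heterozygotes. The groups overlapped, and the log2 fold change was -0.11 ± 0.0480 (SE; edgeR adjusted p = 0.245). Its ratio of counts to mt-Nd5, the next gene on the other strand, was 0.268 ± 0.00366 in WT and 0.263 ± 0.00590 in heterozygotes (SD, n = 4 each; exact two-sided permutation p = 0.171, 0.214 adjusted over 5 ratios). Against mt-Cytb the ratio was 0.143 ± 0.00481 and 0.134 ± 0.00687 (SD, n = 4 each; exact permutation p = 0.0857, adjusted p = 0.214). With 4 against 4 libraries the smallest p of this exact test is 0.0286.

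mt-Cytb had the estimate nearest to 0 of the 18. It ran from 6235 to 6787 CPM in WT and from 6104 to 6616 CPM in heterozygotes (log2 fold change -0.020 ± 0.0391 SE, edgeR adjusted p = 0.846). mt-Co1 was at 13563, 12349, 12650 and 13358 CPM in WT libraries 1 to 4 and 11951, 12369, 12366 and 12375 CPM in heterozygote libraries 1 to 4 (log2 fold change -0.082 ± 0.0382 SE, edgeR adjusted p = 0.299). WT library 2 lay within the heterozygote range, and heterozygote library 1 stood apart below its group. The remaining cytochrome oxidase genes, mt-Co2 and mt-Co3, differed by -0.30 ± 0.318 and -0.40 ± 0.294 (SE) and did not pass (edgeR adjusted p = 0.700 and 0.557). Within odd-numbered libraries both lay on the other side of 0, at 0.25 and 0.046. Without heterozygote library 1 they were at -0.53 and -0.61, without heterozygote library 2 at -0.12 and -0.26, without WT library 2 at -0.14 and -0.25, and for mt-Co2 without WT library 3 at -0.46.

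mt-Atp8 had the estimate farthest from 0 of the 18, on few counts. The gene, which encodes a small membrane subunit of ATP synthase, had 77, 71, 81 and 167 counts in WT libraries 1 to 4, against 37, 27, 19 and 50 counts in heterozygote libraries 1 to 4. That is 1.03, 0.818, 1.02 and 1.86 CPM against 0.629, 0.339, 0.210 and 0.617 CPM, so every heterozygote library lay below every WT library. Of all tested genes 3.59% separated on this side (10.6% on either side), and mt-Atp8 and mt-Tn were the 2 mitochondrial ones. The log2 fold change of mt-Atp8 was -1.47 ± 0.365 (SE) and narrowly missed the threshold (edgeR adjusted p = 0.0566). It passed with the DESeq2 Wald test (adjusted p = 0.00496), and over its 19 alternatives the adjusted p ran from 0.00496 to 0.476. mt-Atp6, whose product forms part of the proton channel, was at 10.6, 11.8, 7.41 and 10.8 CPM in WT and 8.70, 5.18, 5.58 and 7.60 CPM in heterozygotes. WT library 3 fell among the heterozygotes (log2 fold change -0.61 ± 0.191 SE, edgeR adjusted p = 0.138). It passed with the DESeq2 Wald test (adjusted p = 0.0145), and over its 20 alternatives the adjusted p ran from 0.0145 to 1. The ratio of mt-Atp8 to mt-Atp6 counts was 0.119 ± 0.0452 in WT and 0.0641 ± 0.0188 in heterozygotes (SD, n = 4 each; exact permutation p = 0.0857, adjusted p = 0.214). That of mt-Nd4l to mt-Nd4 did not pass either (exact permutation p = 0.514, also after adjustment).

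mt-Tn had 69, 67, 59 and 79 counts in WT libraries 1 to 4, against 22, 46, 40 and 58 counts in heterozygote libraries 1 to 4. In CPM the WT libraries ran from 0.739 to 0.920 and the heterozygote ones from 0.374 to 0.715, without overlap. The log2 fold change of -0.63 ± 0.216 (SE) did not pass (edgeR adjusted p = 0.146).

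**Figure D4:**
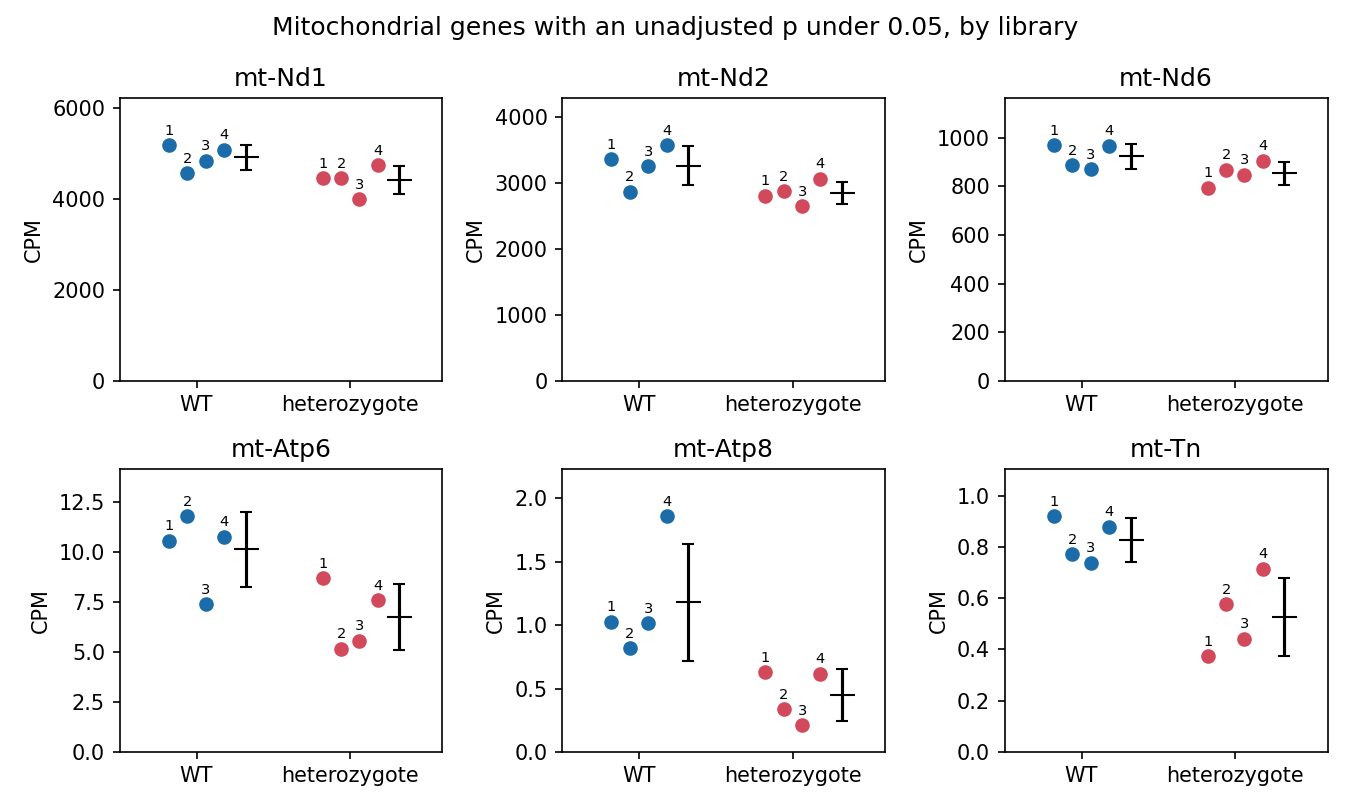
CPM by library (numbered points) for the 6 mitochondrial genes with an unadjusted edgeR p under 0.05; bars give the mean and SD of 4 libraries. mt-Atp8 and mt-Tn separate without overlap, from 0.818 CPM upward in WT against 0.629 CPM downward in heterozygotes for mt-Atp8, and the other 4 overlap.

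The rRNAs, which form the small (mt-Rnr1) and large (mt-Rnr2) mitochondrial ribosomal subunits, separated by library number. mt-Rnr1 was at 2527, 2095, 2401 and 2394 CPM in WT libraries 1 to 4 and 2490, 2040, 2315 and 2099 CPM in heterozygote libraries 1 to 4. mt-Rnr2 was at 3824, 3071, 3917 and 3633 CPM in WT and 3588, 3069, 3196 and 3109 CPM in heterozygotes. In both genes the odd-numbered libraries lay above the even-numbered ones within each genotype, as 3.43% of all tested genes did; 3.8% separated the other way, with 0 of the 18 among them. The odd minus even log2 fold change, a contrast chosen after the values were seen, was 0.17 ± 0.0468 for mt-Rnr1 and 0.17 ± 0.0546 for mt-Rnr2 (SE). Neither passed (edgeR adjusted p = 0.533 and 0.606). Of all genes 0% passed this edgeR contrast, and these 2 of the 18 had an unadjusted p under 0.05 (0.00303 and 0.00959), as 6.83% of all genes did. Library number goes with the spike-in mix, and its part was not tested. Between genotypes the log2 fold change was -0.074 ± 0.0720 for mt-Rnr1 and -0.16 ± 0.0776 for mt-Rnr2 (SE; edgeR adjusted p = 0.656 and 0.343). The ratio of mt-Rnr2 to mt-Rnr1 was 1.53 ± 0.0700 in WT and 1.45 ± 0.0539 in heterozygotes (SD, n = 4 each; exact permutation p = 0.143, adjusted p = 0.214).

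Nuclear genes of mitochondrial gene expression, of the respiratory complexes and ATP synthase, and of mitochondrial biogenesis were read from the same fit. Of 188 in 10 lists, 0 passed over all genes in edgeR, the DESeq2 Wald test or limma-voom, 11 had an unadjusted edgeR p under 0.05 where 17.2% of all genes did in either direction, and 105 had an estimate below 0. For 19 transcription and nucleoid genes the median log2 fold change was -0.00080. The members with the lowest p were Mterf3, a regulator of mitochondrial transcription, at -0.11 ± 0.0598 and Tfam, which packages the circle and activates its promoters, at -0.074 ± 0.0423 (SE; edgeR adjusted p = 0.395 and 0.409). RNA processing genes had a median of -0.022 over 22. Trmt10c, a subunit of the enzyme that cuts tRNA 5′ ends, was at -0.13 ± 0.0586, and the exonuclease gene Rexo2 at 0.10 ± 0.0456 (SE; edgeR adjusted p = 0.261 and 0.263). The tRNA charging and modification list had a median of -0.0060 over 32, with Gatc at -0.097 ± 0.0367 and Yars2, the tyrosyl-tRNA synthetase gene, at -0.13 ± 0.0501 (SE; edgeR adjusted p = 0.189 and 0.200). In the translation list the median was -0.025 over 21, with Guf1 at -0.15 ± 0.0503 and the initiation factor gene Mtif2 at -0.10 ± 0.0486 (SE; edgeR adjusted p = 0.142 and 0.313).

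Nuclear genes of the respiratory complexes and ATP synthase stood close to 0. List medians were 0.012 for complex I (36 genes), -0.0082 for complex II (4), 0.0064 for complex III (9), 0.013 for complex IV (14) and 0.016 for ATP synthase (17). The lowest p in each list, from complex I to ATP synthase, belonged to Ndufb10 at 0.075 and Ndufv3 at 0.080, Sdha at -0.034 and Sdhc at 0.028, Uqcr11 at 0.074 and Uqcrh at 0.057, Cox6b1 at 0.064 and Ndufa4 at 0.037, and Atp5g1 at 0.080 and Atp5l at 0.079. Their edgeR adjusted p lay between 0.229 and 0.732. Regulators of mitochondrial biogenesis had a median of -0.012 over 14. Nfe2l2, an activator of antioxidant genes, was at 0.29 ± 0.100 and the lysosomal regulator gene Tfeb at 0.17 ± 0.0693 (SE; edgeR adjusted p = 0.164 and 0.219). Whether mitochondrial and nuclear subunits differed from each other was not tested.

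Summed markers of several other tissues and cell types lay apart between the genotypes. The summed level of 12 choroid plexus markers was 218, 2168, 749 and 2973 CPM in WT libraries 1 to 4 and 5606 to 6462 CPM in heterozygotes; all 12 were detected and 0 of 12 passed. The sum of 6 ependymal markers ran from 10.4 to 20.7 CPM in WT and from 29.8 to 45.3 CPM in heterozygotes, with 4 of 6 higher. Meningeal fibroblast markers ran from 97.5 to 244 CPM in WT and from 327 to 387 CPM in heterozygotes, with 0 of 8 past the test. Markers of hippocampal excitatory neurons were present throughout, at 7727 to 8593 CPM in WT and 7228 to 8298 CPM in heterozygotes, with 1 of 6 lower. Striatal and thalamic markers summed to 58.4 to 72.3 and 94.1 to 111 CPM in WT and to 78.7 to 139 and 118 to 155 CPM in heterozygotes, with 1 of 6 and 1 of 5 higher. Astrocyte markers summed to 4810 to 5070 CPM in WT and 4467 to 4727 CPM in heterozygotes without overlap, with 0 of 6 past the test. Blood markers summed to 102 to 161 CPM in WT and 101 to 328 CPM in heterozygotes, highest in heterozygote library 1, with 0 of 5 past the test. Oligodendrocyte sums (2911 to 4327 CPM in WT, 3515 to 4199 CPM in heterozygotes) and microglia sums (246 to 267 and 246 to 260 CPM) overlapped. So did endothelium sums (113 to 120 and 112 to 121 CPM) and interneuron sums (783 to 861 and 853 to 870 CPM). In each of these lists 0 markers passed. Of all 17913 tested genes, 2.62% passed as higher and 0.368% as lower in heterozygotes, and 10.6% separated without overlap in either direction. These shares are for single genes, and none was computed for sums. The part of all these cells and tissues in the mitochondrial values was not tested.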

How the data were processed

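The authors deposited raw read counts per Ensembl gene for 8 libraries, with 92 ERCC spike-in rows (0.0431% to 0.0787% of counts), which entered neither library sizes nor tests. The submitters' processing notes name HTSeq, FastQC, DESeq2, STAR 2.4.2a and the builds NCBIM37 and mm9. Roles, settings, annotation and strand handling: not given in the sources used here. All 37 identifiers, versions included, matched GENCODE M21 (GRCm38), which gave symbols, lengths and order. Its coordinates are not printed.

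Counts were scaled by TMM, filtered by filterByExpr (minimum count 10, total 15) and tested in edgeR 4.0.16 under R 4.3.3 by quasi-likelihood (robust, two-sided, Benjamini-Hochberg over 17913 genes, threshold 0.05). A standard error is the log2 fold change over the root of F. DESeq2 1.42.0 and limma 3.58.1 were alternatives, beside other scalings and filters, each library left out, a replicate block, the spike-in mix, odd or even numbers alone, and WT libraries 1 and 3 left out. Count ratios had an exact permutation test. The edgeR step was tested on simulated data. Transcripts were aligned with megablast (at least 40 bases and 85% identity).

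Members and lists were chosen with earlier results of these data known. All mRNAs, rRNAs and tested tRNAs are named, and from each nuclear list the 2 genes with the lowest p. Every pair of libraries of a genotype differed by more than sampling noise (chi-square per degree of freedom 7.42 to 25).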

Additional observations from a re-analysis of the deposited data

Results flagged for a closer look

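Of 58 groups of 4 libraries examined, 1 held a library far from the others. mt-Co1 in heterozygote library 1 was at 11951 CPM, while the remaining heterozygote libraries lay between 12366 and 12375 CPM. Chance marks about 1 in 20 such groups.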

How the results depend on the processing

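The count of 0 mitochondrial genes past the threshold became 3 with the DESeq2 Wald test, 1 with the replicate block (mt-Atp8, log2 fold change -1.45, edgeR adjusted p = 0.0240; 2.27% of all genes), 1 within odd-numbered libraries (mt-Nd2; 3.09% of all genes), and ran from 0 to 2 when each library was left out, the 2 being mt-Nd2 and mt-Atp8 without WT library 2 (2.62% of all genes). It stayed at 0 in the other settings run. The number of the 18 below 0 was 11 with spike-in scaling and ran from 16 to 18 with each library left out. The count of 0 nuclear genes became 1 (Nfe2l2) within odd-numbered libraries and ran from 0 to 1 with each library left out, the 1 without WT library 4.

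Signs turned in 17 of the settings of single genes, none past the threshold. With spike-in scaling the values were 0.028 for mt-Rnr1, 0.040 for mt-Tc, 0.016 for mt-Co1, 0.063 for mt-Nd4, 0.0073 for mt-Nd5, 0.078 for mt-Cytb and 0.031 for mt-Tp. Within odd-numbered libraries they were 0.25 for mt-Co2, 0.046 for mt-Co3 and 0.19 for mt-Nd4l, and within even-numbered ones 0.37 for mt-Tc, 0.0099 for mt-Nd4 and 0.00014 for mt-Cytb. mt-Tc was at 0.19 without WT libraries 1 and 3 together and ran from -0.21 to 0.22 with each library left out; mt-Cytb ran from -0.041 to 0.0052. The cause was not tested. Leaving out 1 library moved the estimate by over 1.5 times or across 0 in 11 of the 18 (mt-Co2, mt-Co3, mt-Cytb, mt-Nd3, mt-Nd4, mt-Nd4l, mt-Nd5, mt-Nd6, mt-Rnr1, mt-Tc and mt-Tp), none of which passed. The mitochondrial share difference ran from -0.270 to -0.128 percentage points without 1 library (lowest without WT library 2, highest without WT library 1). Same-numbered libraries did not deviate together (correlations of -0.0932 to 0.0269), so they were not treated as pairs, although they share a spike-in mix, and the replicate block changed no other call. Counts of mt-Atp8, mt-Tn, mt-Tc and mt-Nd3 were 19 to 167 a library, which limits their precision.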
